A study of Homo sapiens with 9 samples.

Results

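Deoxyribonucleoside triphosphates (dNTPs), the building blocks of DNA, are made, adjusted and broken down by a small group of enzymes, and the RNA of 9 of the genes that encode them was followed through a block of splicing and the recovery from it. The genes were RRM1, RRM2, RRM2B, TYMS, TK1, CAD, DUT, DCTPP1 and SAMHD1. They were taken from a count table of 60708 genes by matching gene IDs to these symbols, a step that used no values. The list of symbols itself was chosen with earlier results of these data known. All 9 were found, 1 row each, and all 9 passed the filter on low counts, which left 20812 genes for testing.

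The cells were MDA-MB-231, an established human line from a triple-negative breast cancer. The 3 groups of 3 libraries were cells given the vehicle DMSO, cells given pladienolide B (PdB) at 10 nM for 16 h, and cells collected 24 h after the end of that PdB treatment, called recovery here. PdB is a natural macrolide that inhibits SF3B1, a component of the U2 snRNP, and so blocks recognition of intron branch points. The groups carry no other stated agent or genetic change, and the series asks how a passing loss of splicing affects DNA damage and sensitivity to chemotherapy. The labels give no collection time for the DMSO cells, so time in culture and recovery from the drug cannot be told apart. They do not say that the libraries of a group came from separate cultures, so p-values measure only the spread between these libraries, which may be technical.

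Ribonucleotide reductase turns the ribonucleoside diphosphates into deoxyribonucleotides. It joins a large catalytic subunit, RRM1, to a small radical-bearing subunit that is either RRM2, made for S phase, or RRM2B, which serves cells outside S phase and under DNA damage. CAD starts pyrimidine synthesis, TYMS makes thymidylate from dUMP, and TK1 makes it from salvaged thymidine. DUT and DCTPP1 are pyrophosphatases that remove dUTP and modified dCTP from the pool, and SAMHD1 hydrolyses dNTPs to nucleosides, so the group holds enzymes that lower the pool as well as enzymes that fill it.

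The promoters are shown here because many genes of S phase carry known elements just upstream of their start: E2F sites, the cell-cycle homology region (CHR) and CCAAT boxes bound by NF-Y. RefSeq windows (GRCh38.p14) from 250 bases before to 50 after the start were found for 8 of the 9 genes, 13 windows in all, since some genes have several starts. RRM2B was not matched. The motifs searched on both strands were TTTCCCGC, TTTCGCGC, TTTGCCGC and TTTGGCGC for E2F, TTTGAA and TTTAAA for CHR, and CCAAT. An E2F match stood in 2 of the 13 windows against 3.32% of all 35093 promoter windows, a CHR match in 5 against 24.0%, and a CCAAT match in 6 against 34.6%. RRM2 held 3 CCAAT boxes in tandem, each followed by the same gggaaggg run, and then a CHR match close to the start. A further CCAAT box of RRM2 stood in the window of its other start. TYMS held 1 E2F match and DUT held 2, and DUT also held 2 CHR matches further upstream in the same window. TK1 had 2 inverted CCAAT boxes and 2 CHR matches, 1 of which fell in the windows of both its starts. The letters TTTAAA stood at -27 to -22 from a start in TK1 and at -30 to -25 in RRM2. Which element these letters form there was not tested. RRM1 had 1 CCAAT box near its start and 1 CHR match further upstream, SAMHD1 had 2 CCAAT boxes, CAD had 1 at the far end of its window, and DCTPP1 had no match. Stretches of 30 bases around the matches nearest to the starts are given below on the strand of the gene, with the matched letters in capitals. ATTGG is CCAAT, and GCGGGAAA is TTTCCCGC, read from the other strand, TTTAAA reads the same on both, and no motif overlaps another here.
RRM2, chr2:10122604-10122633 (plus strand): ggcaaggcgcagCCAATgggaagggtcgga
RRM2, chr2:10122634-10122663 (plus strand): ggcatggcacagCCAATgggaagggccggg
RRM2, chr2:10122661-10122690 (plus strand): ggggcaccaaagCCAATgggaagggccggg
RRM2, chr2:10122697-10122726 (plus strand): cggcgcgggagaTTTAAAggctgctggagt
TYMS, chr18:657603-657632 (plus strand): gcgggacggccGCGGGAAAaggcgcgcgga
TK1, chr17:78187112-78187141 (minus strand): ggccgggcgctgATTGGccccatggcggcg
TK1, chr17:78187071-78187100 (minus strand): tgATTGGccagcacgccgtggTTTAAAgcg
DUT, chr15:48332152-48332181 (plus strand): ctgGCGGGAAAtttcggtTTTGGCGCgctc
RRM1, chr11:4094645-4094674 (plus strand): gcatgtccatatCCAATggggcccatggga
SAMHD1, chr20:36951735-36951764 (minus strand): caggaggCCAATaggctgCCAATactcctt
A match describes the letters of a window and is no measure of binding.

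Total counts were between 56389689 and 67047079 per library, and the lowest count of any of the 9 genes in any library was 753, for RRM2B. Levels are CPM, a gene's counts as a share of its library's TMM-scaled total, and changes are log2 ± SE from edgeR's quasi-likelihood test with Benjamini-Hochberg adjustment over all genes at 0.05. The line's own markers VIM, CD44, CAV1, AXL and MSN were all at or above 525 CPM in every library, while SPARC was at 0.354 to 2.06 CPM. ESR1 was at 0 in every library, PGR, CDH1 and FOXA1 stayed at or below 1.39 CPM, and GATA3 was at 12.4 to 46.8 CPM. Of the leukocyte and fibroblast markers, PTPRC, CD3E and DCN were at or below 0.523 CPM, COL1A2 at or below 5.76, COL1A1 at 2.04 to 24.1 and CD68 at 82.3 to 138.5 CPM. In bulk RNA, fewer cells in S phase and less RNA per cell cannot be told apart. Counts are per gene, so spliced RNA and RNA that kept introns cannot be told apart either, also where a level held under PdB.

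Under PdB, 7 of the 9 genes fell (RRM1, RRM2, RRM2B, TYMS, CAD, DCTPP1 and SAMHD1), TK1 rose slightly, and DUT did not pass the test. Falls were called for 38.2% and rises for 32% of all 20812 genes in the same comparison. The median log2 change of the 9 genes was -0.41, beside -0.11 over all genes tested. At recovery against DMSO, 8 fell and none rose, RRM2B being the gene that missed the threshold, where falls were called for 30.5% and rises for 30.7% of all genes. All 9 changes were below 0 in edgeR, so none rose at an unadjusted p either, and none rose in DESeq2. Here the median of the 9 genes was -1.14, beside 0.03 over all genes. At recovery against PdB, RRM2 and RRM2B rose, RRM1, TYMS, TK1, DUT and SAMHD1 fell, and CAD and DCTPP1 did not pass, with rises called for 34.6% and falls for 31.5% of all genes. The median of the 9 genes was -0.29, beside 0.06 over all genes. Each pair of comparisons shares a group of libraries, so their values are not independent of each other. The scaling matters for small changes: with library totals in place of TMM, the median over all genes moved to -0.31 in PdB against DMSO and to 0.33 in recovery against PdB, where the genes called went from 7204 rising and 6563 falling to 8862 rising and 4876 falling.

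**Figure D1:**
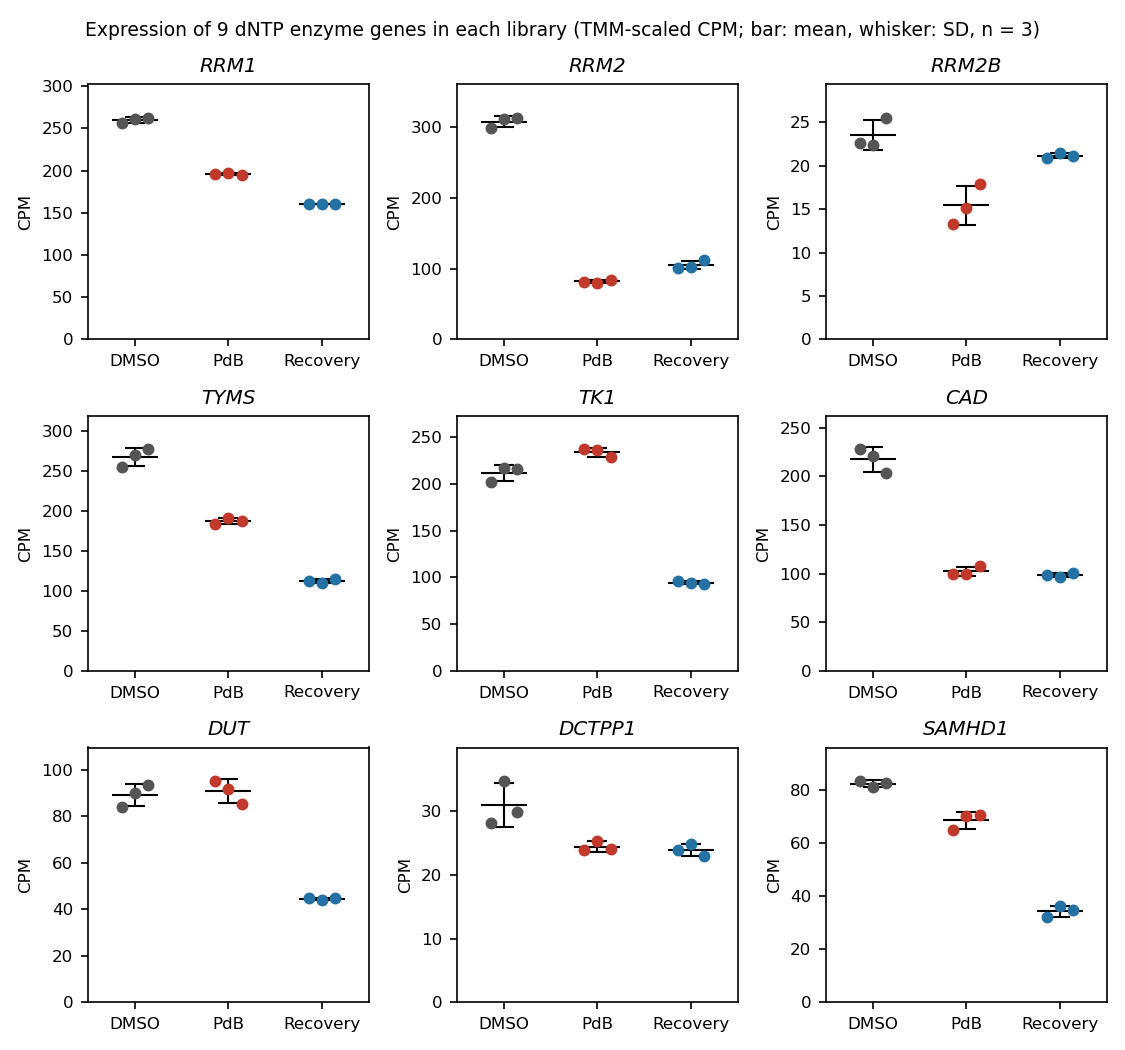
TMM-scaled CPM of the 9 genes in each library (vertical axes, linear, each from 0) in the DMSO, PdB and recovery groups, with the mean as a bar and the SD as a whisker (n = 3). RRM2 dropped under PdB and stayed low, TK1 and DUT dropped between PdB and recovery, and RRM2B at recovery lay between 20.9 and 21.4 CPM, close to DMSO.

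The large subunit of ribonucleotide reductase, RRM1 (ENSG00000167325.15, chr11:4094707-4138876, plus strand, 19 introns), stood at 256, 261 and 263 CPM in the DMSO libraries. It was at 196, 198 and 195 CPM under PdB and at 160.1, 160.9 and 160.1 CPM at recovery. The 3 groups did not overlap, and the order was DMSO, PdB, recovery from high to low. RRM1 fell by 0.41 ± 0.04 on the log2 scale under PdB (adjusted p 7.7e-08, and by 0.26 with upper-quartile scaling, still called) and by 0.29 ± 0.04 from PdB to recovery (adjusted p 7.2e-06), where with library totals the second change was -0.02 and not called. At recovery it held 61.7% of its DMSO level.

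The S-phase small subunit, RRM2 (ENSG00000171848.16, chr2:10120698-10131419, plus strand, 9 introns), was at 298, 312 and 313 CPM in DMSO. It was at 81.7, 80.1 and 84.5 CPM under PdB, from 4614, 4510 and 4395 counts. At recovery it was at 100.8, 102 and 112 CPM. Every PdB library lay below every recovery library, and both groups lay far below DMSO. RRM2 kept 26.7% of its DMSO level under PdB (log2 change -1.91 ± 0.05, adjusted p 8.1e-16) and 34% at recovery (log2 change -1.56 ± 0.05, adjusted p 4.9e-14). The rise from PdB to recovery was 0.35 ± 0.05 (adjusted p 7.3e-06) and 0.62 with library totals. RRM2 showed the largest fall of the 9 genes in both comparisons with DMSO.

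The alternative small subunit, RRM2B (ENSG00000048392.12, chr8:102204502-102239118, minus strand, 8 introns), was at 22.6, 22.4 and 25.5 CPM in DMSO. It was at 13.3, 15.2 and 17.9 CPM under PdB and at 20.9, 21.4 and 21.2 CPM at recovery. The PdB libraries were the lowest and the most scattered, and no PdB library reached a library of the other groups. RRM2B fell under PdB (log2 change -0.61 ± 0.10, adjusted p 2.5e-05) and rose from PdB to recovery (0.46 ± 0.10, adjusted p 5.5e-04, and 0.72 with library totals). At recovery it was at 90.0% of the DMSO mean, with all 3 libraries just below the lowest DMSO library. That difference did not pass the test (-0.15, 95% interval -0.36 to 0.05, adjusted p 0.19).

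The balance of the subunits was read within each library as a ratio of counts per kb of exon, which needs no scaling between libraries. The RRM2 to RRM2B ratio was 13.7, 14.5 and 12.8 in DMSO, 6.38, 5.51 and 4.93 under PdB, and 5.02, 4.95 and 5.49 at recovery. Every treated or recovered library lay below every DMSO library, while PdB and recovery overlapped. The log2 ratio differed from DMSO by -1.29 ± 0.12 under PdB and by -1.41 ± 0.07 at recovery, and the recovery minus PdB difference was -0.12 ± 0.12. Recovery and PdB did not differ beyond this spread, although RRM2 and RRM2B were each higher at recovery.

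The ratio of RRM1 to summed RRM2 and RRM2B was 1.02, 0.997 and 0.992 in DMSO, 2.65, 2.66 and 2.44 under PdB, and 1.69, 1.68 and 1.55 at recovery. No groups overlapped, and recovery lay between the other two. The log2 ratio was higher than in DMSO by 1.36 ± 0.04 under PdB and by 0.71 ± 0.04 at recovery. In an exact two-sided permutation test, 3 libraries against 3 cannot go below p = 0.10. The ratios reached 0.10 in 5 of the 6 comparisons (0.12 after adjustment over the 6) and 0.5 for RRM2 to RRM2B between recovery and PdB. Ratios of RNA do not measure the subunits of the enzyme.

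**Figure D2:**
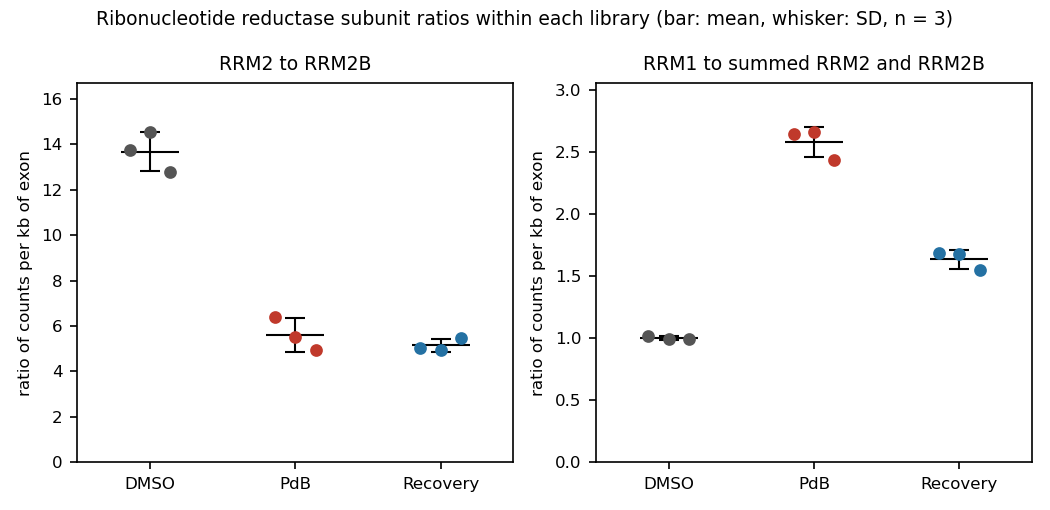
Ratio of RRM2 to RRM2B (left) and of RRM1 to summed RRM2 and RRM2B (right) in counts per kb of exon within each library (linear axes from 0), with the mean as a bar and the SD as a whisker (n = 3). The left ratio dropped from a mean of 13.7 in DMSO to 5.61 under PdB and 5.15 at recovery, and the right one went from 1.00 to 2.58 and back to 1.64.

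Thymidylate synthase, TYMS (ENSG00000176890.16, chr18:657604-673578, plus strand, 6 introns), was at 256, 269.9 and 277 CPM in DMSO. It was at 184, 191 and 188 CPM under PdB and at 113, 110.3 and 114 CPM at recovery. The groups did not overlap, and TYMS went down in both steps. It fell by 0.51 ± 0.05 on the log2 scale under PdB (adjusted p 1.3e-08), then by a further 0.74 ± 0.05 (adjusted p 9.8e-11, and by 0.47 with library totals, still called), to 42.1% of DMSO. TYMS shares 3255 bases with ENOSF1 on the other strand, and whether the counting used strand is not given in the sources used here. ENOSF1 held 7.52% as many counts as TYMS and also fell (log2 change -1.06 ± 0.11 under PdB and -1.77 ± 0.11 at recovery against DMSO). The antisense gene TYMSOS held 2.34% as many.

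Thymidine kinase 1, TK1 (ENSG00000167900.12, chr17:78174075-78187233, minus strand, 5 introns), was at 202, 217 and 216 CPM in DMSO. It was at 237, 237 and 229 CPM under PdB and at 96.0, 93.6 and 93.1 CPM at recovery. The PdB libraries lay just above DMSO, and the recovery libraries lay below both groups by a wide margin. TK1 rose by 0.15 ± 0.05 on the log2 scale under PdB (adjusted p 0.0095). That small change was -0.05 and not called with library totals, and was lost without the filter on low counts (0.11, adjusted p 0.09) and without DMSO library 1 (0.10, adjusted p 0.074). It was 0.30 and called with upper-quartile factors. TK1 then fell by 1.31 ± 0.05 from PdB to recovery (adjusted p 4.1e-14), the largest fall of the 9 genes in that comparison, to 44.5% of DMSO.

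CAD (ENSG00000084774.14, chr2:27217390-27243943, plus strand), a single protein with carbamoyl-phosphate synthetase, aspartate transcarbamylase and dihydroorotase activities, has 43 introns, against a median of 7 in 14226 protein-coding genes tested. It was at 228, 221 and 204 CPM in DMSO, at 100.2, 99.7 and 108 CPM under PdB, and at 99.0, 96.2 and 100.5 CPM at recovery. PdB and recovery overlapped, and both lay below DMSO. CAD fell by 1.08 ± 0.05 on the log2 scale under PdB (adjusted p 2.1e-12) and was at 45.3% of DMSO at recovery (log2 change -1.14 ± 0.05, adjusted p 2.8e-12). Between PdB and recovery it changed by -0.06 (95% interval -0.17 to 0.06, adjusted p 0.35), a value that was 0.21 and called with library totals and -0.13 and called with upper-quartile scaling.

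The dUTP pyrophosphatase DUT (ENSG00000128951.14, chr15:48331011-48343373, plus strand, 6 introns) was at 84.1, 90.3 and 93.4 CPM in DMSO. It was at 95.4, 91.9 and 85.5 CPM under PdB and at 45.0, 44.1 and 44.8 CPM at recovery. DMSO and PdB overlapped, and every recovery library lay below both. Under PdB the log2 change was 0.03 (95% interval -0.10 to 0.15, adjusted p 0.69), and its sign turned with the scaling, from -0.17 with library totals to 0.18 with upper-quartile factors, both called. DUT then fell by 1.03 ± 0.06 from PdB to recovery (adjusted p 2.3e-11), to 50.03% of DMSO. The antisense gene DUT-AS1 held 1.31% as many counts, and 8 pseudogenes of DUT at most 0.0843% each.

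DCTPP1 (ENSG00000179958.10, chr16:30423619-30430075, minus strand, 2 introns) was at 28.1, 34.7 and 29.9 CPM in DMSO. It was at 23.8, 25.4 and 24.0 CPM under PdB and at 23.8, 24.8 and 22.9 CPM at recovery. DMSO library 2 was the highest, and PdB and recovery overlapped below the DMSO libraries. DCTPP1 fell by 0.34 ± 0.08 under PdB (adjusted p 0.0014) and by 0.37 ± 0.08 at recovery against DMSO (adjusted p 7.4e-04). The change under PdB was smaller with upper-quartile factors (-0.19, adjusted p 0.05, at the edge of the threshold) and when genes averaging under 50 counts were dropped (-0.22, adjusted p 0.023), and larger with library totals (-0.54). Between PdB and recovery it changed by -0.03 (95% interval -0.21 to 0.14, adjusted p 0.74), which became 0.23 and called with library totals. The whole gene lies inside ZNF771 on the other strand, which held 15.0% as many counts and had a log2 change of -1.11 ± 0.22 under PdB.

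SAMHD1 (ENSG00000101347.11, chr20:36889773-36951901, minus strand, 14 introns), the dNTP hydrolase, was at 83.4, 80.9 and 82.5 CPM in DMSO. It was at 64.7, 70.0 and 70.6 CPM under PdB and at 32.1, 36.1 and 34.7 CPM at recovery. The groups did not overlap. SAMHD1 fell slightly under PdB (log2 change -0.27 ± 0.06, adjusted p 6.1e-04, -0.12 and not called with upper-quartile scaling, and -0.46 with library totals). It fell by 1.00 ± 0.06 from PdB to recovery (adjusted p 5.1e-11), to 41.7% of DMSO. SAMHD1, which removes dNTPs, thus had a share of its DMSO level at recovery close to those of TYMS (42.1%) and TK1 (44.5%).

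**Figure D3:**
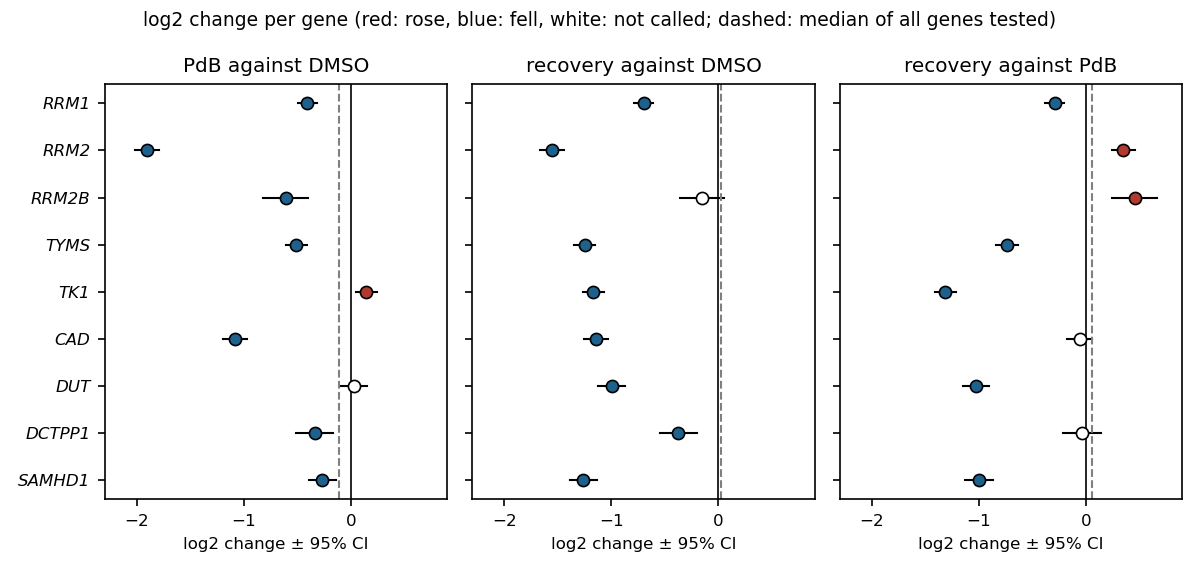
log2 change of each of the 9 genes with its 95% interval in the 3 comparisons (filled red: rose, filled blue: fell, white: not called), with the median over all genes tested as a dashed line. In recovery against DMSO all points lie left of 0, from -1.56 for RRM2 to -0.15 for RRM2B, and RRM2 and RRM2B stand right of 0 in recovery against PdB.

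The 9 genes reached their recovery levels along different courses. RRM2 and CAD were at 26.7% and 47.2% of DMSO under PdB, and CAD hardly moved afterwards. TK1, DUT and SAMHD1 were at 110.6%, 101.9% and 83.2% of DMSO under PdB and at 44.5%, 50.03% and 41.7% at recovery. As a description of likeness, the Euclidean distance between log2 CPM less the DMSO mean over the 9 libraries was smallest for TK1 and DUT (0.37), then for TYMS and SAMHD1 (0.46) and for RRM1 and DCTPP1 (0.63). It was largest between RRM2 and TK1 (3.62).

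By the same distance among 12021 protein-coding genes that averaged 100 or more counts, the nearest genes were SLC7A1 and ITGB1BP1 to RRM1 (0.13 each) and ACSL4 and HDAC6 to RRM2 (0.26 and 0.34). They were OAS3 and ERRFI1 to RRM2B (0.17 and 0.24), STMP1 and SCCPDH to TYMS (0.12 and 0.15), DAP and ERI3 to TK1 (0.18 and 0.19), and PRMT1 to DUT (0.15). For DCTPP1 they were BTBD1 and DHX9 (0.23 each), for SAMHD1 HDAC1 and CLIC4 (0.11 and 0.20), and for CAD CEP250 and PBRM1 (0.19 each). RRM2 had the most distant nearest gene of the 9.

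Per length, in CPM per kb of exon, TK1 (114 ± 4.6, SD, n = 3) and TYMS (108 ± 4.5) led in DMSO, and their libraries overlapped. RRM1 (62.2) and RRM2 (57.8) followed, then CAD (25.8) and DUT (24.3), which overlapped, then DCTPP1 (19.5), SAMHD1 (7.31) and RRM2B (4.24). Under PdB, TK1 led at 125.8, TYMS at 76.0 and RRM1 at 46.9, and RRM2 had dropped to 15.4, level with DCTPP1 at 15.4. DUT came next after RRM1 at 24.8, CAD was at 12.2, SAMHD1 at 6.08 and RRM2B at 2.78. At recovery the order was TK1 (50.6), TYMS (45.6), RRM1 (38.4), RRM2 (19.7), DCTPP1 (15.1), DUT (12.2), CAD (11.7), RRM2B (3.82) and SAMHD1 (3.05), with no overlap between neighbours. The order depended on the length used. With the longest transcript as the length, TYMS stood above TK1 in DMSO and at recovery, and RRM2B was last in all 3 groups. In DMSO, RRM2 (83.8) then stood above RRM1 (82.1), with overlap, and DUT (41.6) above CAD (29.9). Under PdB, RRM2 (22.3) stood above DCTPP1 (20.0) without overlap, and at recovery DUT (20.8) stood above DCTPP1 (19.5).

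The 9 genes differ in structure: from 2 introns and a span of 6457 bases in DCTPP1 to 43 introns in CAD and a span of 62129 bases in SAMHD1, beside medians of 7 introns and 32785 bases in the protein-coding genes tested. Under PdB, the gene with 43 introns (CAD) fell to 47.2% of DMSO, RRM2 with 9 introns to 26.7%, RRM1 with 19 introns to 75.4% and SAMHD1 with 14 introns to 83.2%. The order of the falls was not the order of intron number among these 9 genes.

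Of all genes tested, 32% rose and 38.2% fell under PdB, and 30.7% rose and 30.5% fell at recovery against DMSO. Of 14 other genes of pyrimidine and thymidylate synthesis, 6 rose and 7 fell under PdB (median log2 change -0.13), and 2 rose and 10 fell at recovery against DMSO (median -0.77). The largest rise under PdB was that of NME2, a nucleoside diphosphate kinase that makes triphosphates, from 371 to 724 CPM (log2 change 0.96 ± 0.05), and it was at 406 CPM at recovery. The largest fall was that of CTPS1, which makes CTP from UTP, from 126.8 to 21.7 CPM (-2.55 ± 0.07), and it was at 69.2 CPM at recovery. DTYMK, chosen after its values were seen, phosphorylates the product of TYMS and TK1. It was at 82.0 CPM in DMSO, 62.6 under PdB and 31.2 at recovery. DTYMK fell by 0.39 ± 0.07 on the log2 scale under PdB (adjusted p 4.7e-05) and by 1.00 ± 0.07 from PdB to recovery (adjusted p 2.9e-10).

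Of 20 genes of nucleoside salvage and nucleotide breakdown, 6 rose, 8 fell and 6 did not pass under PdB (median -0.04), and 5 rose and 13 fell at recovery against DMSO (median -0.46). The split under PdB was near the 32% rising and 38.2% falling of all genes tested. It moved with the scaling, to 10 rising and 4 falling with upper-quartile factors. With those factors 7510 of all 20812 genes rose and 7060 fell, where TMM gave 6655 and 7944. PNP, which splits purine nucleosides, rose most under PdB, from 73.4 to 162.6 CPM, and was at 112.5 CPM at recovery. TK2, the mitochondrial thymidine kinase, fell most, from 18.8 to 2.87 CPM (log2 change -2.71 ± 0.13). At recovery TK2 was at 12.4 CPM, still below DMSO (-0.59 ± 0.12, adjusted p 2.7e-04). TK2 and TK1 thus moved in opposite ways from PdB to recovery, TK2 by 2.12 ± 0.13 and TK1 by -1.31 ± 0.05.

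The shares of all genes tested that rose and fell were 32% and 38.2% under PdB, and 30.7% and 30.5% at recovery against DMSO. From PdB to recovery they were 34.6% and 31.5%. Of 25 S-phase genes, 22 fell and 2 rose under PdB (median -1.31), and 19 fell and 2 rose at recovery against DMSO (median -0.77). From PdB to recovery 15 rose and 7 fell (median 0.65), where 5 of the 9 dNTP genes fell (median -0.29). POLA2, the accessory subunit of DNA polymerase alpha, had the largest fall under PdB, from 30.6 to 2.43 CPM, and was at 9.86 CPM at recovery. GINS3, a subunit of the replicative helicase, had the largest rise, 0.37 on the log2 scale. With library totals none of the 25 rose under PdB, where 5579 of all 20812 genes rose and 9098 fell. Of 17 regulators of these enzymes and their genes, 6 rose and 10 fell under PdB (median -0.42), and 6 rose and 8 fell at recovery against DMSO (median -0.02). E2F3, a transcription factor of S-phase genes, rose most, from 62.9 to 398 CPM (log2 change 2.66 ± 0.05), and was at 83.9 CPM at recovery. The other E2F genes listed moved both ways under PdB. E2F2 rose (1.53), E2F1 (-1.65), E2F4 (-0.42) and E2F8 (-0.99) fell, and E2F7 did not pass. CDC20, an activator of the anaphase-promoting complex, fell most, from 259 to 26.1 CPM, and was at 304.5 CPM at recovery.

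**Figure D4:**
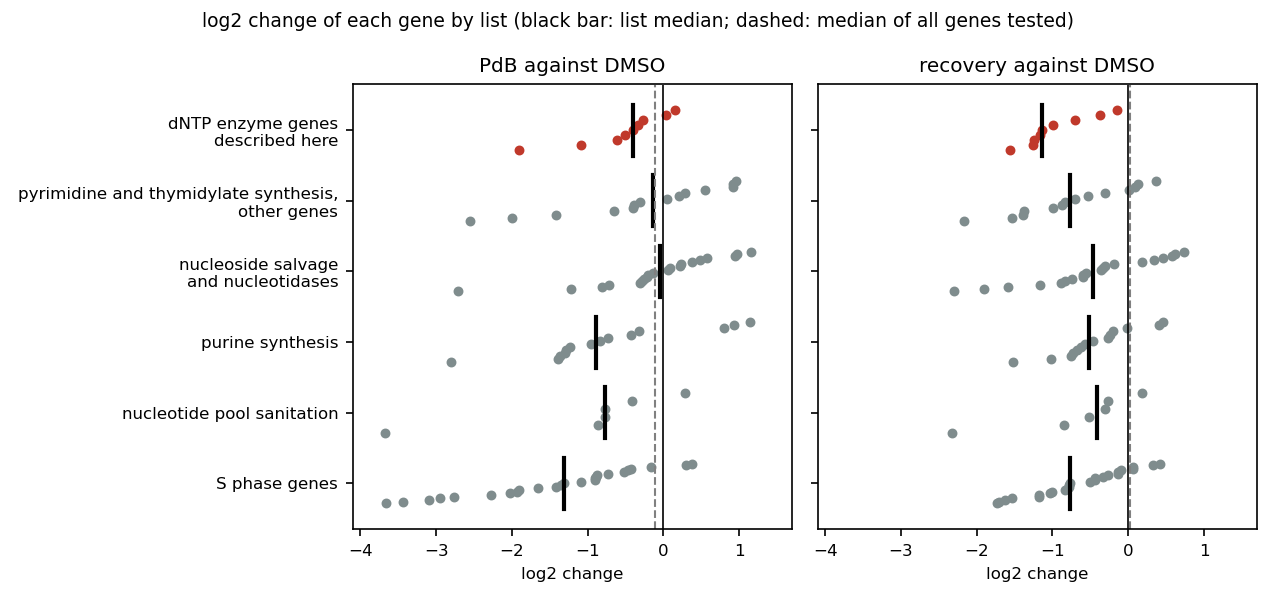
log2 change of each gene (points) in the 9 dNTP enzyme genes (red) and in 5 lists of related genes (grey), under PdB (left) and at recovery (right), both against DMSO, with the list median as a black bar and the median over all genes as a dashed line. The 9 genes have a median of -0.41 on the left and -1.14 on the right, while the S-phase genes have -1.31 and -0.77.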

How the data were processed

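The authors deposited whole-number read counts, not normalised, for 60708 genes in the 9 libraries of polyadenylated RNA. The submitters' processing notes name the genome hg38 and the tools DESeq2 1.30.0, featureCounts 2.0.3, Picard, STAR 2.7.9a and fastp 0.23.2. How each was set, which annotation was used and whether counting used strand is not given in the sources used here, so reads of overlapping genes cannot be told apart. Of the gene IDs, 60652 had a symbol and 58440 matched GENCODE 29, the source of coordinates and introns. No column of sample values was left unused.

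Counts were filtered with filterByExpr, scaled by TMM and tested two-sided with edgeR 4.0.16 (R 4.3.3), all 9 libraries in 1 quasi-likelihood fit (common biological coefficient of variation 0.111). Exon lengths were the union of annotated exons. Log2 CPM for distances used a prior count of 2, and subunit ratios a prior of 0.5 counts. The fit was tested on simulated data with 200 changed genes. That is far fewer than the 6655 rising and 7944 falling called under PdB, so the simulation does not test the scaling. No libraries agreed within counting noise: chi-square per degree of freedom within groups was 4.87 to 24.1. Replicate numbers were not used as pairs. The 9 genes and all lists, tests and alternatives were chosen with earlier results of these data known. The text names all 9 genes, the largest rise and fall under PdB of each of 6 lists (mean count 50 or more), the 2 genes nearest to each of the 9 in pattern, and overlapping genes or copies. DTYMK and the other E2F genes of the regulator list were named outside this rule. A further list and a few genes that this rule names are not reported here. Alternatives were scaling by library totals, upper quartiles or RLE, DESeq2 1.42.0, a threshold of 0.01, a minimum mean count of 50 or no filter at all, a fit of the 6 libraries compared, a replicate block, each library left out, and for ratios the longest transcript and no prior. Promoter windows came from RefSeq. Figures were drawn with Python 3.11.15 and matplotlib 3.10.9.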

Additional observations from a re-analysis of the deposited data

How the results depend on the processing

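Of 405 recomputed changes of the 9 genes, 388 kept their direction and their side of the threshold, 4 fell short of it, 4 came to pass it and 9 turned in sign. The changes that did not keep both were TK1, DUT and SAMHD1 under PdB and RRM1, DCTPP1 and CAD between PdB and recovery. The threshold of 0.01 reused the main fit, so no sign could turn there. RLE scaling and DESeq2 gave nearly the same log2 changes. The 405 are therefore not separate checks of direction. With library totals, TK1 (-0.051) and DUT (-0.171) turned under PdB, and DCTPP1 (0.234) and CAD (0.209) turned between PdB and recovery. DUT under PdB was -0.007 without a filter and -0.023 to 0.068 with 1 library left out, turning without DMSO library 1 and without PdB library 1. DCTPP1 between PdB and recovery was -0.053 to 0.003 with 1 library left out, turning without PdB library 2 and without recovery library 3. Genes rising under PdB numbered 1, but 2 with upper-quartile factors, 2 with a mean of at least 50 counts, 0 with library totals, 0 without a filter and 0 to 1 with 1 library left out. Those rising from PdB to recovery numbered 2, but 4 with library totals. With library totals, the pyrimidine list had 5 rising, the purine list 2 falling and the S-phase list 3 falling from PdB to recovery. The sanitation and S-phase lists then had 0 rising under PdB. Of all 20812 genes with library totals, 8862 rose and 4876 fell from PdB to recovery, and 5579 rose and 9098 fell under PdB. With upper-quartile factors the salvage list had 10 rising and 4 falling under PdB, where 7510 of all 20812 genes rose and 7060 fell. The cause was not tested. With the replicate block, 1 of the 9 genes rose and 7 fell under PdB, as without it, and no call on the 9 genes changed. Deviations of same-numbered libraries correlated by -0.003 to 0.048. In 13 of 18 comparisons a library was closest to its own number among the 3 libraries of another group. The labels do not say what the numbers mark, so they were not read as pairs. Whether same-numbered libraries share a batch was not tested. The log2 ratios of the subunits kept their direction in every alternative run. A change of length could not move the RRM2 to RRM2B differences. For that ratio between recovery and PdB (-0.12 ± 0.12) the kept sign has no weight.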

Other observations

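Purine nucleotides feed the same reductase as the pyrimidines. Over all genes tested, 32% rose and 38.2% fell under PdB, and 30.7% and 30.5% at recovery against DMSO. From PdB to recovery the shares were 34.6% and 31.5%. Of 14 purine synthesis genes, 11 fell and 3 rose under PdB (median log2 change -0.90), and 11 fell and 2 rose at recovery against DMSO (median -0.52). From PdB to recovery 8 rose and 5 fell (median 0.40), against 2 rising and 5 falling among the 9 dNTP genes. ADSS2, which commits inosine monophosphate to adenylate synthesis, fell most under PdB, from 89.3 to 12.7 CPM, and was at 60.1 CPM at recovery. GUK1, guanylate kinase, rose most, from 116.7 to 258 CPM, and was at 153.9 CPM at recovery.

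The shares over all genes are those just given for the purine genes. Of 6 further genes whose enzymes clear modified nucleotides from the pool, 5 fell and 1 rose under PdB (median -0.77), and 5 fell and 1 rose at recovery against DMSO (median -0.41). From PdB to recovery 4 rose and 1 fell (median 0.43). NUDT18, a hydrolase of oxidised guanine nucleotides, fell most, from 2.33 to 0.180 CPM (log2 change -3.67 ± 0.48), and was at 0.463 CPM at recovery. NUDT1, which hydrolyses 8-oxo-dGTP, was the riser (0.28), a call that library totals removed.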
